A study of Mus musculus with 12 samples.

Results

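The 35 genes described here encode proteins that drive cells into and out of mitosis, build the spindle and separate the chromosomes. They were listed by symbol with earlier results of these data known, so counts over them are not independent evidence. Of the 35, 34 had a row in a count table of 23621 gene symbols, while the spindle motor gene Kif11 was not analysed here. The study concerned neutrophils in a mouse model of breast cancer that spreads to the liver, and polyadenylated RNA of 12 neutrophil libraries was sequenced. The Naive group held 4 libraries, numbered 1 to 4, of neutrophils from the bone marrow of naive mice. The HDN group (high-density neutrophils) and the LDN group (low-density neutrophils) held 4 libraries each, numbered 3, 4, 5 and 7 in both, from the peripheral blood of mice bearing liver metastases. All mice were female Balb/c mice aged 8 weeks, and the labels name no genotype, drug or transgene. Naive therefore differed from both blood groups in tissue and in the presence of a tumour at the same time, and these cannot be told apart.

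Cyclin-dependent kinase 1, bound to cyclin A or cyclin B, starts mitosis, and the polo and aurora kinases act with it. Kinetochore proteins then attach the chromosomes to the spindle, the spindle checkpoint holds the cell until all are attached, and the anaphase-promoting complex (APC/C) ends mitosis by marking cyclin B and securin for destruction. In the neutrophil lineage division ends with the myelocyte stage, so banded and segmented neutrophils of the blood are regarded as non-dividing, and marrow holds the dividing precursors.

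Transcripts of the mitosis genes were abundant in marrow neutrophils, nearly absent in HDN and intermediate in LDN. Levels are CPM (counts scaled to a common library total), scaled between libraries by TMM, and are given with their SD over 4 libraries. The CPM of the 34 genes summed to 969, 1049, 1408 and 1457 in Naive 1 to 4. In HDN 3, 4, 5 and 7 the sum was 55.0, 34.1, 43.9 and 46.6 CPM. In LDN 3, 4, 5 and 7 it was 288.8, 282.1, 171.3 and 203.0 CPM. The 3 groups did not overlap, and the means were 1221 ± 247 CPM in Naive, 44.9 ± 8.62 CPM in HDN and 236 ± 58.3 CPM in LDN. LDN thus held 19.4% and HDN 3.68% of the Naive level. Kif23 alone made up 38.3% of the HDN sum, and without it HDN held 2.33% and LDN 18.7% of the Naive level. In bulk RNA, fewer dividing cells and less RNA of these genes per cell cannot be told apart.

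**Figure D1:**
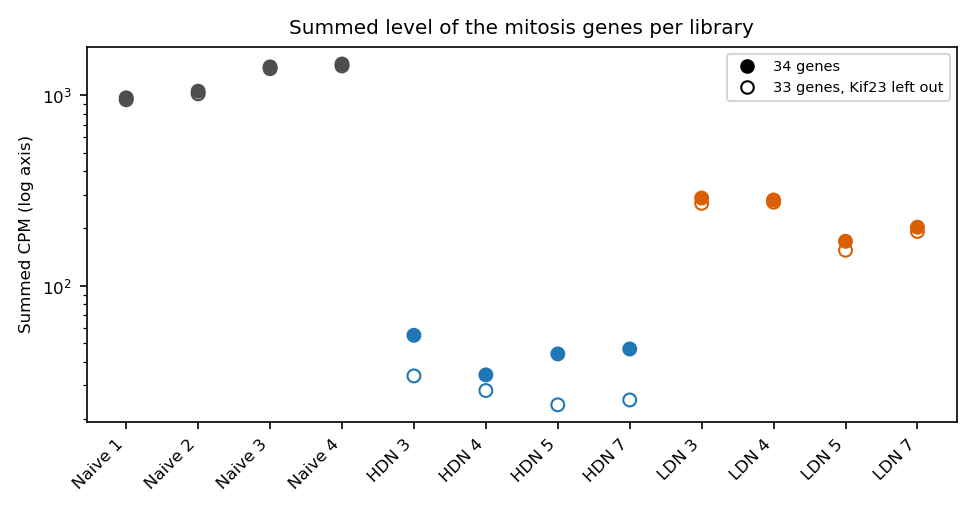
Summed CPM (log axis) of the mitosis genes in each of the 12 libraries, coloured by group, with filled circles for all 34 genes and open circles for 33 genes without Kif23. The HDN libraries lie between 34.1 and 55.0 CPM, the LDN libraries between 171.3 and 288.8 CPM and the Naive libraries between 969 and 1457 CPM.

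Gene by gene, 32 of 34 mitosis genes were higher in LDN than in HDN and 0 were lower, at a Benjamini-Hochberg adjusted p under 0.05 in edgeR's quasi-likelihood test over 10604 genes. Of all genes tested, 26.0% were higher and 20.3% lower in this comparison. At an unadjusted p under 0.05 the lower count was also 0, and DESeq2 gave 0 lower and 32 higher. The median log2 fold change of the mitosis genes was 3.63, with a range of -0.37 to 5.16, against 0.023 for all genes tested. In 32 of them every LDN library lay above every HDN library, which held for 23.6% of all genes, and the opposite order, found for 0 of the 34, held for 15.7%. Kif23 and Anln were the genes without a call.

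Against Naive, 33 of 34 were lower and 0 higher in HDN, where 29.9% of all genes were lower and 30.0% higher, and the gene without a call was again Kif23. All 34 were lower and 0 were higher in LDN, where 26.8% of all genes were lower and 27.4% higher. At an unadjusted p under 0.05, 0 were higher in either comparison, and DESeq2 also called 0 higher. The median log2 fold change was -6.47 in HDN (all genes 0.039) and -2.56 in LDN (all genes 0.015). In both comparisons every Naive library lay above every blood library for all 34 genes, which held for 27.8% of all genes in HDN and 27.8% in LDN, while the opposite order held for 25.5% and 27.5%. The comparisons share the Naive libraries, so their results are not independent of each other. Of the 34 genes, 26 reached the level of the filter on low counts (0.415 CPM by library totals, before TMM scaling) in every library of at least 2 groups, and 24 of these were higher in LDN than in HDN. The other 8 (Bub1, Ttk, Cenpe, Ndc80, Kif15, Kif4, Hmmr and Ncapg) reached it on that scale in every library of Naive only, so their fall against Naive follows in part from the filter. On the TMM-scaled CPM given below, Ndc80 and Kif4 lie above 0.415 in all 4 LDN libraries as well.

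**Figure D2:**
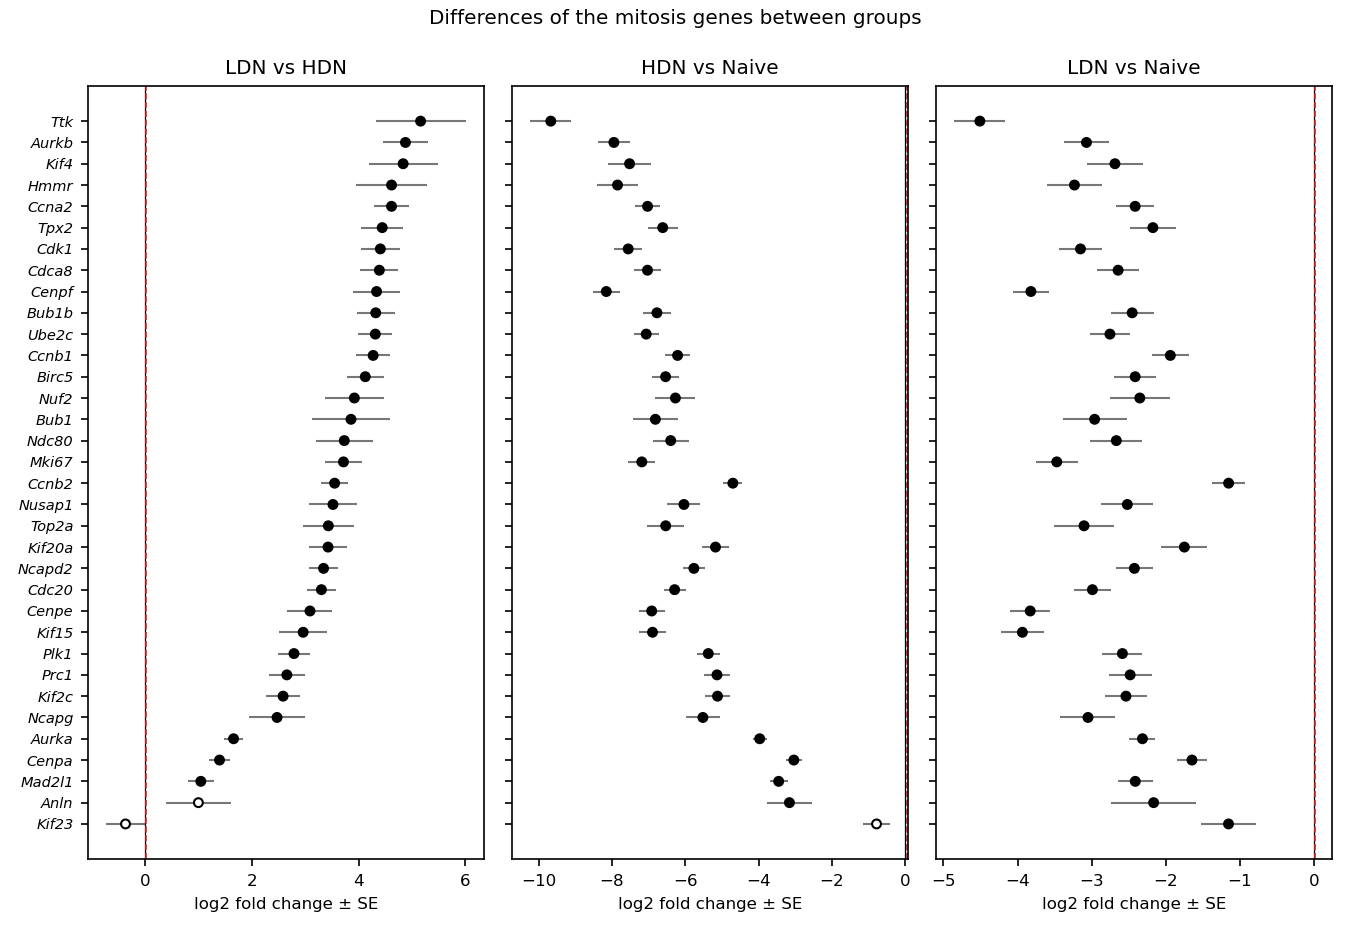
Log2 fold change with its SE for the 34 genes in the 3 comparisons, ordered by LDN vs HDN. Filled points passed an adjusted p of 0.05, open points did not, the solid line marks 0 and the dashed line the median of all genes tested. All but Kif23 and Anln lie to the right of 0 with a call in LDN vs HDN, and all 34 lie to the left of 0 against Naive, Kif23 without a call in HDN.

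Library depth ran from 18113922 to 30044508 counts and overlapped between the groups, and 3 reads corresponded to 0.0954 to 0.153 CPM. The 8 neutrophil markers (such as S100a8 and S100a9) summed to 143243 to 177764 CPM in Naive, 78527 to 128232 CPM in HDN and 168564 to 217418 CPM in LDN, so the labelled cell type was present throughout. For the marker counts that follow, the shares of all genes tested were 26.0% higher and 20.3% lower in LDN vs HDN. They were 30.0% higher and 29.9% lower in HDN vs Naive, and 27.4% higher and 26.8% lower in LDN vs Naive. Of 11 neutrophil precursor genes, mostly granule genes with the transcription factor genes Cebpe and Gfi1 among them, 10 were higher in LDN than in HDN. The sum of all 11 was 60171 to 65698 CPM in Naive, 1984 to 3809 CPM in HDN and 29371 to 41573 CPM in LDN. All 11 were lower in HDN than in Naive, while in LDN 7 were lower and 1 was higher than in Naive. Prtn3 stood at 14.8 to 21.8 CPM in Naive and 27.6 to 67.6 CPM in LDN. Of 9 B lineage markers, some of them genes of marrow B cell precursors, which divide, 8 were tested and all 8 were lower in HDN and in LDN than in Naive. They summed to 20.7 to 58.4 CPM in Naive, 0.382 to 2.32 CPM in HDN and 1.30 to 7.00 CPM in LDN, with 1 of them (Igll1) at 0 reads in HDN, and Cd79a alone was higher in LDN than in HDN. Of 8 erythroid markers only Tfrc was tested. The erythroid sum was 5.62 to 13.8 CPM in Naive, 1.75 to 6.41 CPM in HDN and 1.25 to 2.35 CPM in LDN. The 5 early progenitor markers summed to 28.3 to 49.0 CPM in Naive, 0.992 to 1.64 CPM in HDN and 5.45 to 7.18 CPM in LDN, and 2 of 3 tested (Myb and Cd34) were higher in LDN than in HDN. The 8 T and NK cell markers summed to 197 to 270 CPM in Naive, 3.55 to 20.6 CPM in HDN and 34.7 to 49.9 CPM in LDN, most of it Cd3d, and 2 of 6 tested were higher in LDN than in HDN. Against Naive, 3 of the 6 were lower and 1 was higher in HDN, and the same counts held in LDN. Cd3e stood at 0 to 0.148 CPM in Naive, 0.0763 to 1.10 CPM in HDN and 0.233 to 0.970 CPM in LDN. Monocyte markers summed to 356 to 559 CPM in HDN and 353 to 527 CPM in LDN, which overlapped, and to 619 to 828 CPM in Naive. Of 7 monocyte markers tested 4 were higher in LDN than in HDN, among them Fn1, Ly6c2 and Ccr2 (log2 2.09 to 3.81). Only Csf1r, a large part of the sum, was lower (-1.60). Platelet markers summed to 6.51 to 8.32 CPM in HDN and 4.003 to 4.801 CPM in LDN, and to 6.86 to 8.43 CPM in Naive. Of 5 tested platelet markers 4 were higher in LDN than in HDN (Ppbp, Pf4, Gp9 and Gp1bb, log2 2.37 to 3.95), each under 2 CPM in both, and Itga2b, most of the sum in HDN, was lower (-1.56). The 7 epithelial markers summed to 3.203 to 4.435 CPM in Naive, 12.9 to 70.0 CPM in HDN and 11.5 to 71.7 CPM in LDN. Most of the sum in the blood groups was Cdh1, at 3.85 to 64.2 CPM in HDN and 9.96 to 71.3 CPM in LDN, and Epcam reached 7.71 CPM in HDN and 1.12 CPM in LDN. In both blood groups Cdh1 was higher in libraries 3 and 5 than in 4 and 7, and Epcam the reverse. Of these markers 3 were tested, and Epcam and Krt7 were lower in LDN than in HDN, while Krt14 and Krt19 had 0 reads in every library. Hepatocyte markers summed to at most 0.254 CPM. The part of precursors, B lineage, T and NK, monocyte, platelet, epithelial or erythroid cells in the mitosis gene levels was not tested. Column names of HDN and LDN carry a date-like tag that the Naive columns lack, so any batch and the difference from Naive cannot be told apart. Whether libraries of 1 group are different animals is not labelled, and the p-values reflect only how far these samples scatter.

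The promoters of these genes share short sequence elements. Many mitosis genes are known to carry the cell cycle genes homology region (CHR), which binds MuvB complexes, and upstream CCAAT boxes, which bind NF-Y. RefSeq promoters (build GRCm38.p6, 250 bases before to 50 after the start) were found for 30 of the 34 genes and not for Kif20a, Tpx2, Ccna2 and Aurkb. CHR was searched as TTTGAA or TTCGAA, with TTCAAA on the other strand, and CCAAT with ATTGG on the other strand. A CHR and a CCAAT match can share a base at their ends, and each was counted on its own. Ccnb2, Cdk1, Ube2c and Top2a are shown as 4 genes higher in LDN with both elements near the start, Kif23 as the gene without a call, and Birc5 as a gene higher in LDN with neither element. Each run covers 130 bases before and 20 after the start, 5′ to 3′ on the gene's strand, with CHR and CCAAT matches of either strand in capitals. The positions are chr9:70421535-70421684, minus strand for Ccnb2, chr10:69352893-69353042, minus strand for Cdk1, chr2:164769799-164769948, plus strand for Ube2c, chr11:99024170-99024319, minus strand for Top2a, chr9:61946780-61946929, minus strand for Kif23 and chr11:117849107-117849256, plus strand for Birc5.
Ccnb2: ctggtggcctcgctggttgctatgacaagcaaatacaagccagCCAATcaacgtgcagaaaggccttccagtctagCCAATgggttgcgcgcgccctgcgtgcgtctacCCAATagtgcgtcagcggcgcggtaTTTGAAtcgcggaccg
Cdk1: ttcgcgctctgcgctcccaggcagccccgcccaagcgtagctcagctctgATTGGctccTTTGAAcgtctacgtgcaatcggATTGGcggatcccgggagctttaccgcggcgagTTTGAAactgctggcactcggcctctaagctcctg
Ube2c: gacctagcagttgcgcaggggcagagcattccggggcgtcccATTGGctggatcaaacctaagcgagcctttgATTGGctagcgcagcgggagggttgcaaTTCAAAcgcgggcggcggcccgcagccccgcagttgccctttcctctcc
Top2a: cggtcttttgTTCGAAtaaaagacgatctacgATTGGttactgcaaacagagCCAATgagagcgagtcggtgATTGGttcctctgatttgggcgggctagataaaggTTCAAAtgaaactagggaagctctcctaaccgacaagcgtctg
Kif23: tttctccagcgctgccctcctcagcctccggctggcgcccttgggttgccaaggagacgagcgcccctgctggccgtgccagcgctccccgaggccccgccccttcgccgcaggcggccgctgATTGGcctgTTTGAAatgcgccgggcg
Birc5: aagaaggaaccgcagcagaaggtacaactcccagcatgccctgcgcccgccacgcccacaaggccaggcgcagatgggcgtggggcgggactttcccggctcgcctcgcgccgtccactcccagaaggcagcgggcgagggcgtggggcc

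A CHR match occurred in the promoter of 24 of 30 mitosis genes (80.0%), against 16.2% of the promoters of 8142 genes tested and 21.7% of all 27018 genes with a promoter. Within 50 bases of the start it occurred in 21 (70.0%), against 4.36% of genes tested. CCAAT matched in 22 (73.3%), against 42.8%, and both elements in 20 (66.7%), against 6.84%. The E2F motif (TTTGGCGC or TTTCGCGC, either strand) matched in 3, namely Cdk1, Kif15 and Ncapd2, against 1.98%. Among 91 other pathway genes with a promoter, CHR matched in 44.0%, CHR within 50 bases of the start in 29.7%, CCAAT in 61.5% and both in 34.1%, between the mitosis genes and all genes tested. Promoters without a CHR match were those of Ccnb1, Birc5, Mad2l1, Cenpe, Nuf2 and Nusap1, all of them higher in LDN than in HDN. In Kif23, CHR begins at position 2 and CCAAT at -7, counted from 0 at the start base. Both genes without a call, Kif23 and Anln, thus have a CHR match, and 6 genes with a call have none. These shares are descriptions of sequence, and factor binding was not measured.

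**Figure D3:**
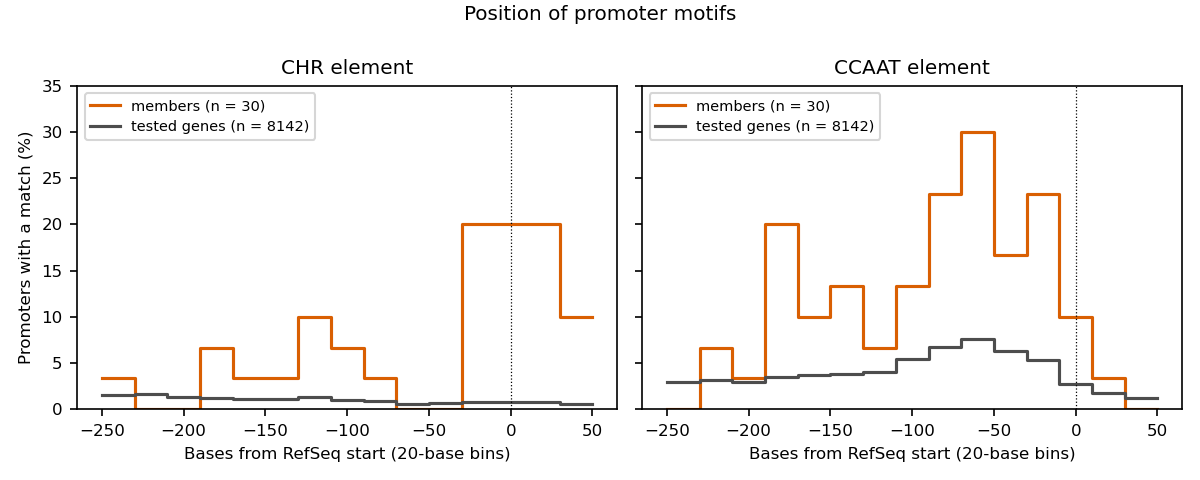
Share of promoters (%) with a CHR match or a CCAAT match starting in each 20-base bin, by distance in bases from the RefSeq start, for 30 mitosis genes and 8142 genes tested. CHR matches of the mitosis genes occur in 6 promoters in each bin from -30 to 30, while the genes tested stay at 0.749 to 0.786% in those bins. CCAAT matches of the mitosis genes peak at 30.0% between -70 and -50, and those of the genes tested peak in the same bin, at 7.61%.

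Cyclins and Cdk1 were higher in LDN than in HDN for all 4 genes, with log2 fold changes of 3.55 to 4.62. Ccnb2, a B-type cyclin with the highest mean log2 CPM of the 4 over all 12 libraries, stood at 51.8, 54.0, 72.1 and 74.6 CPM in Naive 1 to 4. It stood at 3.10, 2.61, 2.40 and 1.60 CPM in HDN 3, 4, 5 and 7, and at 35.4, 34.6, 19.97 and 23.5 CPM in LDN 3, 4, 5 and 7. The 3 groups were separate, and LDN 3 and 4 lay above LDN 5 and 7. Ccnb2 was 11.7-fold higher in LDN than in HDN (log2 3.55 ± 0.25, ± SE here and for each log2 fold change, adjusted p = 4.94e-07). With Kif23 (44.9%) it kept the highest share of its Naive level in LDN, 44.95%, yet was lower there (log2 -1.15 ± 0.22, adjusted p = 0.000617). Cdk1, the kinase these cyclins activate, kept 11.2% in LDN and 0.520% in HDN. Ccna2 (cyclin A2) kept 18.7% and Ccnb1 (cyclin B1) 26.0% in LDN.

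The mitotic kinases Plk1 and Aurka were both higher in LDN. Plk1, the polo-like kinase that acts at spindle poles and kinetochores, stood at 47.2, 43.9, 53.5 and 56.0 CPM in Naive, 1.36, 1.62, 0.914 and 0.916 CPM in HDN, and 9.23, 12.2, 4.34 and 7.59 CPM in LDN. The groups did not overlap, LDN 5 was the lowest LDN library, and Plk1 was 6.91-fold higher in LDN than in HDN (log2 2.79 ± 0.29, adjusted p = 9.30e-06). Aurka, the aurora kinase of the spindle poles, differed less, at 6.78 ± 0.638 CPM (LDN) against 2.16 ± 0.386 CPM (HDN), with a log2 fold change of 1.66 ± 0.18 (adjusted p = 1.25e-05). Aurka thus kept 6.39% of its Naive level in HDN, above the share of its relative Aurkb (0.369%).

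The chromosomal passenger complex corrects faulty attachments at the centromere, and all 3 of its genes were higher in LDN (log2 4.13 to 4.88). Cdca8, which encodes its borealin subunit, stood at 54.6, 55.9, 72.8 and 69.9 CPM in Naive, 0.679, 0.636, 0.343 and 0.267 CPM in HDN, and 11.1, 15.5, 5.52 and 8.33 CPM in LDN. It was 20.9-fold higher in LDN than in HDN (log2 4.39 ± 0.35, adjusted p = 1.31e-06), with every LDN library above every HDN library. Aurkb, the kinase of the complex, stood at 30.0, 29.2, 43.0 and 42.9 CPM in Naive. Its HDN values were 0.0969, 0.286, 0.0381 and 0.114 CPM, resting on 15 reads in all, and its LDN values were 4.76, 6.37, 2.55 and 3.54 CPM. The difference of Aurkb between LDN and HDN (log2 4.88 ± 0.43, adjusted p = 2.18e-06) was among the 3 largest of the 34 genes. Birc5 (survivin), the gene printed above with neither promoter element, was 17.4-fold higher in LDN.

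Among the spindle checkpoint genes all 4 were higher in LDN, over a wide span of log2 fold changes (1.04 to 5.16). Bub1b, which encodes the checkpoint protein BubR1, stood at 33.2, 48.7, 72.0 and 75.0 CPM in Naive, 0.969, 0.445, 0.305 and 0.420 CPM in HDN, and 11.98, 11.8, 7.92 and 10.01 CPM in LDN. The groups were separate and Bub1b was 19.98-fold higher in LDN than in HDN (log2 4.32 ± 0.36, adjusted p = 1.52e-06). Ttk, the checkpoint kinase Mps1, stood at 3.63, 3.76, 4.42 and 5.40 CPM in Naive and 0.292, 0.0923, 0.204 and 0.140 CPM in LDN, 16 reads in all. It had 0 reads in all 4 HDN libraries. With HDN set at 3 reads in all, Ttk was 6.43-fold higher in LDN than in HDN and 147-fold lower in HDN than in Naive. These ratios take the LDN and Naive reads as exact, so they are not lower bounds. The 95% exact counting interval of the ratio started at 4.65 for LDN over HDN. For HDN over Naive it ended at 0.00841. The fitted log2 fold change of Ttk in LDN vs HDN (5.16 ± 0.84, adjusted p = 0.000642) depends on how the fit treats 0 and is no bound. Ttk also kept the smallest share of its Naive level in LDN, 4.23%.

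Mad2l1, which encodes the checkpoint protein Mad2, differed least among the genes with a call. It stood at 16.2, 20.2, 30.4 and 32.1 CPM in Naive, 2.47, 2.38, 2.09 and 2.06 CPM in HDN, and 5.72, 4.98, 4.39 and 3.44 CPM in LDN. The lowest LDN library was above the highest HDN library, and Mad2l1 was 2.06-fold higher in LDN (log2 1.04 ± 0.24, adjusted p = 0.00300). For Bub1, a checkpoint kinase at kinetochores, 43 LDN reads stood against 3 HDN reads, a ratio of 17.3 with a 95% exact counting interval of 5.53 to 87.1.

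Kinetochore and centromere genes were higher in LDN for all 5 members. Cenpa, the histone H3 variant that marks centromeres, stood at 60.9, 54.2, 67.1 and 64.0 CPM in Naive, 9.26, 7.50, 8.76 and 4.47 CPM in HDN, and 21.7, 23.2, 18.03 and 15.7 CPM in LDN. Its groups were separate, and it was 2.62-fold higher in LDN (log2 1.39 ± 0.20, adjusted p = 0.000125), the smallest difference of this role. Cenpa kept 12.2% of its Naive level in HDN, a share exceeded there only by Kif23 (58.2%) among the 34 genes. Ndc80 and Nuf2, partners in the complex that grips spindle microtubules, had log2 fold changes of 3.73 ± 0.54 and 3.92 ± 0.55, on 6 and 17 HDN reads. Nuf2 stood at 4.63 CPM in LDN 3 against 1.74 to 1.98 CPM in the other LDN libraries. Cenpe, a kinetochore motor, and Cenpf, a large kinetochore protein, kept 6.97% and 7.04% of their Naive level in LDN. For Cenpf, 59 LDN reads stood against 3 HDN reads, a ratio of 23.7 (95% counting interval 7.73 to 118).

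**Figure D4:**
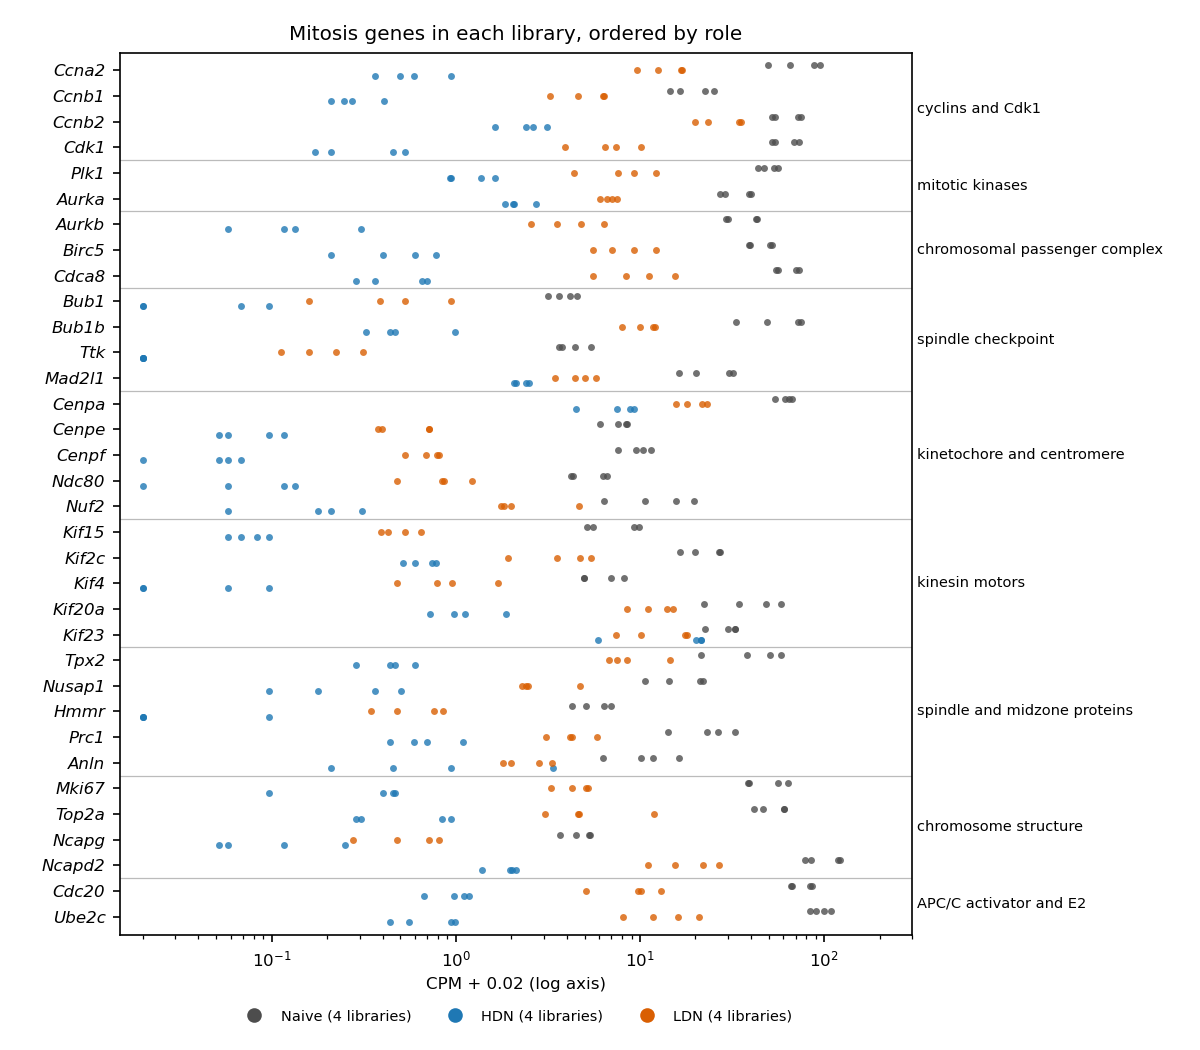
CPM (plus 0.02, log axis) of each of the 34 genes in each library, 4 points per group, ordered by role. Naive points lie furthest right for every gene, LDN points lie between Naive and HDN for all but Kif23 and Anln, and Ttk has all 4 HDN points at the left edge, where a count of 0 is drawn.

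Among the kinesin motors 4 of 5 genes were higher in LDN than in HDN, and Kif23 was not. Kif23 (MKLP1) bundles midzone microtubules as part of centralspindlin and is needed for cytokinesis. It stood at 22.6, 32.6, 30.2 and 32.9 CPM in Naive, 21.3, 5.88, 20.2 and 21.4 CPM in HDN, and 17.95, 7.43, 17.6 and 10.1 CPM in LDN. HDN and LDN overlapped, library 4 was the lowest in both, and 3 of 4 HDN libraries lay just below the lowest Naive library. The log2 fold change was -0.37 ± 0.36 in LDN vs HDN (adjusted p = 0.425) and -0.78 ± 0.36 in HDN vs Naive (adjusted p = 0.0777). It was -1.15 ± 0.37 in LDN vs Naive (adjusted p = 0.0165), so Kif23 passed the test only there. Its partner in centralspindlin, Racgap1, was 7.08-fold higher in LDN than in HDN (log2 2.82 ± 0.26, adjusted p = 3.54e-06), at 14.3 ± 4.61 and 2.02 ± 0.265 CPM.

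Without HDN 4 the Kif23 difference between LDN and HDN was -0.66 (adjusted p = 0.0538), and over 18 alternatives it ran from -0.70 to -0.24 with adjusted p from 0.0538 to 0.647. In the authors' deposited table it was -0.41 with an adjusted p of 0.376. Kif4, the chromokinesin of the chromosome arms, stood at 4.97, 4.94, 6.91 and 8.18 CPM in Naive, 0, 0, 0.0381 and 0.0763 CPM in HDN, and 1.67, 0.461, 0.766 and 0.931 CPM in LDN. For Kif4, 85 LDN reads stood against 3 HDN reads, a ratio of 34.2 (95% counting interval 11.3 to 169), with a fitted log2 of 4.83 ± 0.65 (adjusted p = 5.88e-05). Kif20a (MKLP2), which carries the passenger complex to the midzone, kept 29.7% of its Naive level in LDN. Kif15, a spindle motor that acts beside Kif11, kept 6.42%, and Kif2c, a microtubule depolymerase, 17.1%.

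**Figure D5:**
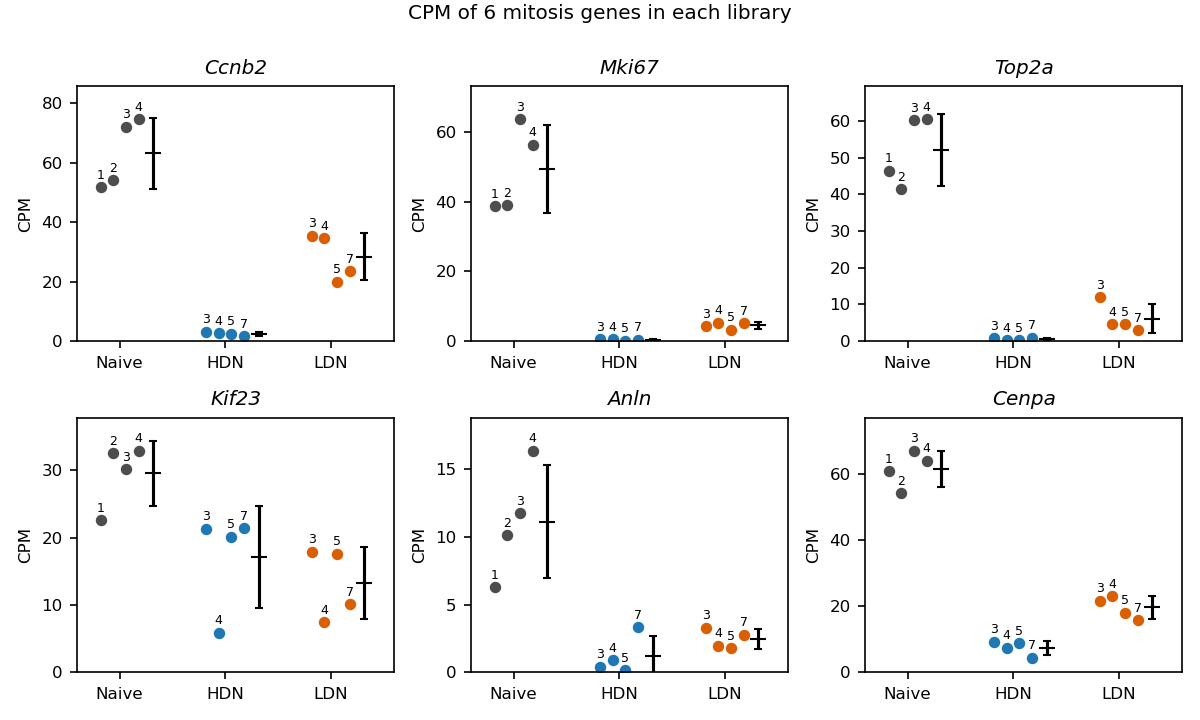
CPM of 6 genes in each library (points, labelled by replicate number) with the mean and SD of each group of 4. Ccnb2, Mki67, Top2a and Cenpa have LDN points wholly above HDN points, Kif23 overlaps between HDN and LDN with library 4 lowest in both, and Anln overlaps through HDN 7 at 3.36 CPM.

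Of the 5 spindle and midzone proteins 4 were higher in LDN than in HDN. Tpx2, which activates Aurora A on the spindle, stood at 21.3, 37.9, 50.6 and 58.4 CPM in Naive, 0.582, 0.445, 0.419 and 0.267 CPM in HDN, and 14.4, 8.49, 6.79 and 7.45 CPM in LDN. The groups did not overlap, LDN 3 was the highest LDN library, and Tpx2 was 21.7-fold higher in LDN than in HDN (log2 4.44 ± 0.39, adjusted p = 2.27e-06). For Hmmr, a spindle assembly protein and hyaluronan receptor, 52 LDN reads stood against 2 HDN reads, a ratio of 31.4 (95% counting interval 8.26 to 266). Prc1, the midzone microtubule bundler, and Nusap1, a spindle microtubule stabiliser, had log2 fold changes of 2.65 ± 0.33 and 3.52 ± 0.45.

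Anln (anillin), a scaffold of the cytokinetic ring that also binds actin, was the other gene without a call in LDN vs HDN. It stood at 6.27, 10.1, 11.7 and 16.4 CPM in Naive, 0.436, 0.922, 0.190 and 3.36 CPM in HDN, and 3.30, 1.98, 1.79 and 2.79 CPM in LDN. HDN 7 lay above all 4 LDN libraries, whereas the other 3 HDN libraries lay below them. The log2 fold change was 1.00 ± 0.60 (adjusted p = 0.191), and without HDN 7 it was 2.20 (adjusted p = 0.00227). Of the 1768 results of single genes under alternative settings, this was the only change of call among the 34 genes. Anln was lower than in Naive in HDN (log2 -3.16 ± 0.60, adjusted p = 0.000476) and in LDN (log2 -2.16 ± 0.57, adjusted p = 0.00593).

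The genes of chromosome structure were higher in LDN for all 4 members, with log2 fold changes of 2.47 to 3.72. Ncapd2, a condensin subunit, stood at 78.9, 84.5, 119 and 121 CPM in Naive, 1.99, 2.10, 1.37 and 1.95 CPM in HDN, and 22.0, 26.8, 10.98 and 15.5 CPM in LDN. It was 10.1-fold higher in LDN than in HDN (log2 3.34 ± 0.28, adjusted p = 1.67e-06), with separate groups. Mki67, the gene of the proliferation antigen Ki-67 that coats mitotic chromosomes, stood at 38.8, 39.0, 63.7 and 56.4 CPM in Naive, 0.436, 0.445, 0.0761 and 0.382 CPM in HDN, and 4.26, 5.21, 3.27 and 5.07 CPM in LDN. All LDN libraries of Mki67 lay above all HDN libraries, and it kept 9.001% of its Naive level in LDN.

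Top2a, the topoisomerase that untangles sister chromatids, stood at 46.5, 41.4, 60.4 and 60.5 CPM in Naive, 0.824, 0.286, 0.266 and 0.916 CPM in HDN, and 11.9, 4.57, 4.65 and 3.03 CPM in LDN. LDN 3 was the highest of the LDN libraries, the groups did not overlap, and Top2a was 10.8-fold higher in LDN than in HDN (log2 3.43 ± 0.48, adjusted p = 7.64e-05). Ncapg, another condensin subunit, had 49 LDN reads and 10 HDN reads (log2 2.47 ± 0.52, adjusted p = 0.00173).

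The APC/C activator Cdc20 and its ubiquitin-conjugating enzyme Ube2c were both higher in LDN. Ube2c stood at 90.8, 83.6, 99.5 and 108 CPM in Naive, 0.969, 0.922, 0.419 and 0.534 CPM in HDN, and 16.0, 20.9, 8.07 and 11.7 CPM in LDN. The 3 groups were separate, with LDN 5 and HDN 5 the lowest of their groups, and Ube2c was 19.9-fold higher in LDN than in HDN (log2 4.31 ± 0.32, adjusted p = 7.32e-07). Cdc20 had a log2 fold change of 3.30 ± 0.28 (adjusted p = 1.71e-06) and kept 12.6% of its Naive level in LDN and 1.27% in HDN.

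Within Naive and LDN many of the genes were high or low in the same libraries. In Naive, library 4 was the highest for 24 of the 34 genes and library 3 for the other 10, while library 1 was the lowest for 21 and library 2 for the other 13. Naive 1 also had the lowest level of the B lineage marker Cd79a, 5.81 CPM against 12.6 to 13.2 CPM in the other Naive libraries. Naive 2, however, had the highest Cd79a level of that group, and library 5 had the highest in both LDN (2.96 CPM) and HDN (0.647 CPM). In LDN, library 3 was the highest for 19 and library 4 for 13, while library 5 was the lowest for 22. For the granule gene Mpo, made at the promyelocyte stage, LDN 3, 4, 5 and 7 stood at 16.9, 43.5, 5.57 and 14.8 CPM, with library 5 again the lowest. For Ltf, a granule gene of later precursors, the same libraries stood at 12474, 12999, 17613 and 8796 CPM, with library 5 the highest. In HDN, library 3 was the highest for 17 genes and the lowest for 3, library 4 the highest for 7 and the lowest for 6, library 7 the highest for 10 and the lowest for 10, and library 5 the lowest for 15. The replicate numbers have no order, and what these genes share with the granule genes within a group was not tested.

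Levels per kilobase used the exon length of the longest protein-coding transcript of each gene (GENCODE, build GRCm38) and the mean CPM of a group. On this scale Ube2c (43.6), Cdc20 (42.1), Cenpa (42.0) and Ccnb2 (41.2) led in Naive. In LDN, Ccnb2 led with 18.5 CPM per kilobase, followed by Cenpa with 13.4. In HDN, Cenpa (5.11) and Kif23 (5.06) stood above Ccnb2 (1.59). Across the 34 genes, Spearman's rho of the per-kilobase level between Naive and LDN was 0.955, and between Naive and HDN 0.786. These are correlations across genes, which are not independent replicates and share transcript length, so they carry no p. Longer transcripts tended to keep a smaller share of the Naive level in LDN (rho -0.385 across 34 genes), with Cenpf and Cenpe, at 11130 and 7910 bases, among the lowest shares. The lowest share, that of Ttk (4.23%), belonged to a transcript of 2871 bases. In 9 genes (Ccna2, Cdc20, Kif20a, Kif4, Ncapg, Nusap1, Plk1, Prc1 and Ube2c) an exon overlaps a gene of the opposite strand. Whether the counting used strand is not stated in the sources used here, and reads of those pairs may not be fully told apart.

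Other genes of the cell cycle followed only in part. Of 131 further pathway genes 119 were tested, and 66 were higher and 7 lower in LDN than in HDN, with a median log2 fold change of 0.86. Of all genes tested, 26.0% were higher and 20.3% lower in this comparison. Among spindle and cytokinesis genes 20 of 24 were higher and 0 lower, led by level by Depdc1b, Racgap1 and Tacc3 (log2 2.34, 2.82 and 2.93). Among kinetochore and checkpoint genes 15 of 23 were higher and 0 lower, including Spc24 of the Ndc80 complex (4.54 ± 0.48, adjusted p = 9.30e-06). Of 16 APC/C genes 5 were higher and 0 lower, close to the share of all genes tested (26.0% higher), each by a log2 fold change under 1 (Anapc1 0.80, Anapc2 0.32, Cdc26 0.50, Anapc13 0.74 and Fbxo5 0.83).

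Of 12 cohesin and separase genes 3 were higher, a share near the 26.0% of all genes tested. They were Espl1, the separase gene (3.11 ± 0.30, adjusted p = 4.79e-06), Sgol1 (4.46) and Esco2 (5.54). Esco2 stood at 0 CPM in every HDN library and 0.0511 to 0.372 CPM in LDN, so its fitted value is no bound. Sgol1 stood at 0 to 0.0763 CPM in HDN. Pds5b was lower (-1.29 ± 0.49, adjusted p = 0.0451), at 1.66 ± 0.499 CPM (LDN) and 4.08 ± 3.85 CPM (HDN). HDN 7 stood at 9.81 CPM, and the other HDN libraries, at 1.56 to 2.76 CPM, overlapped LDN. Of 6 further condensin genes Smc2 (3.42), Ncaph (3.07) and Ncapg2 (2.08) were higher, and Smc4, the partner of Smc2 in condensin, was lower (-0.89 ± 0.29, adjusted p = 0.0216). Smc4 stood at 3.95 ± 0.50 CPM (LDN) and 7.30 ± 3.78 CPM (HDN). HDN 7 was the highest at 12.7 CPM, and HDN 4, at 4.20 CPM, lay within the LDN range of 3.51 to 4.43 CPM. Mitotic entry control genes were higher for 5 of 7, with 0 lower, namely the phosphatase genes Cdc25a, Cdc25b and Cdc25c and also Pkmyt1 and Bora (log2 1.34 to 4.47).

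The transcription factors that drive mitosis genes did not move as a block. Foxm1 was 6.27-fold higher in LDN (6.62 ± 2.37 against 1.06 ± 0.228 CPM, log2 2.65 ± 0.29, adjusted p = 1.38e-05), and it stood at 52.9 ± 10.9 CPM in Naive. Of the MuvB subunits, Lin54, which contacts the CHR, was higher (0.99 ± 0.29, adjusted p = 0.0123) and Lin52 lower (-0.89 ± 0.23, adjusted p = 0.00670). Mybl2 (B-Myb), named here after its values were seen, had 1.72 ± 0.626 CPM (LDN) and 2.15 ± 0.236 CPM (HDN) (-0.31 ± 0.27, adjusted p = 0.367). Of 10 E2F factors and pocket proteins 6 were higher and 0 lower, among them E2f2 (279.6 ± 27.7 against 68.4 ± 14.5 CPM, log2 2.03 ± 0.16, adjusted p = 9.93e-07), E2f3 and E2f8.

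Cyclin-dependent kinase inhibitors went both ways, with 3 of 7 higher and 3 lower in LDN than in HDN. The shares of all genes tested were 26.0% higher and 20.3% lower. Cdkn1a (p21) was lower in LDN, with 13.3 ± 3.61 CPM against 44.2 ± 16.6 CPM in HDN (-1.74 ± 0.27, adjusted p = 0.000196), against 7.88 ± 1.46 CPM in Naive. Cdkn1b (p27) was lower in LDN than in HDN (-0.77 ± 0.13, adjusted p = 0.000278), and so was Cdkn1c, at under 1 CPM in both. Cdkn2d was higher (0.59 ± 0.17, adjusted p = 0.0124), as were Cdkn2c (0.84) and Cdkn3 (4.00), a phosphatase gene whose product acts on Cdk1 and Cdk2. Of 7 G1 cyclins and kinases 4 were higher, namely Ccnd3, Ccne1, Cdk2 and Cdk4 (log2 1.12 to 1.27), and Ccnd2 was lower (-2.05 ± 0.37, adjusted p = 0.000551). For DNA replication, 9 of 16 genes were higher in LDN and 0 lower, such as Mcm5 (3.14), Rrm2 (3.03) and Rrm1 (1.49).

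Against Naive the same pathway lists were mostly lower: 83 of 119 genes were lower and 4 higher in HDN, and 81 lower and 9 higher in LDN. Of all genes tested, 29.9% were lower and 30.0% higher in HDN, and 26.8% lower and 27.4% higher in LDN. All 24 further spindle and cytokinesis genes were lower in both. DNA replication genes were lower for 15 of 16 in both, and their sum was 326 to 547 CPM in Naive, 71.8 to 89.5 CPM in HDN and 82.5 to 142 CPM in LDN, where HDN and LDN overlapped. Cdkn1a and Cdkn1b were higher in HDN than in Naive (log2 2.48 ± 0.28 and 0.80 ± 0.13). Cdkn1b in LDN differed from Naive by 0.03 ± 0.13 (adjusted p = 0.849). In the authors' deposited tables, 32 of the 34 mitosis genes were higher and 0 lower in LDN vs HDN at an adjusted p under 0.05, 33 were lower in HDN vs Naive and 34 in LDN vs Naive. The share of all genes passing in those tables is not given here, so these counts stand without a background.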

How the data were processed

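RNA of 12 neutrophil libraries was measured by RNA-seq. Per the labels' protocols, RNA was taken up in TriZol, cleaned on columns and made into stranded polyA libraries with a KAPA kit. CASAVA 1.8.2, Trimmomatic, STAR and DESeq2 1.16.1 are named in the submitters' processing notes. Which build, annotation and strand setting served for counting is not given in the sources used here. The authors deposited raw counts per gene symbol, not normalized, and 0 sample columns were left unmatched. The authors also deposited 3 comparison tables that give, per the file headers, a mean normalized signal, log2 fold changes with log2 standard errors, a statistic (a score) per gene and p-values. Only their log2 fold changes and adjusted p-values were used.

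The counts were tested with edgeR 4.0.16 and limma 3.58.1 in R 4.3.3: filterByExpr by group with a minimum count of 10, TMM scaling, and a robust quasi-likelihood fit that took group alone as a term over the 12 libraries. Of 15762 symbols with reads 10604 were tested, holding 99.967% of counts. Benjamini-Hochberg adjustment ran over all of them, with a threshold of 0.05. Depth was 18113922 to 30044508 counts, and floors (3 reads) and 95% exact conditional intervals cover counting error only, since no label names molecular identifiers. No 2 libraries of a group agreed within sampling noise (chi-square per gene 3.44 to 199.6).

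Same-numbered HDN and LDN libraries deviated together, with correlations of 0.315 to 0.760 in all 4 pairs against -0.608 to 0.412 in other pairs. HDN 3, however, correlated more with LDN 5 (0.412) than with LDN 3 (0.385). The numbers were taken to pair the libraries because every same-number correlation exceeded 0.1. That reading comes from the data and not from the labels, and 1-to-1 pairing is not settled by it. The paired fit is an alternative. The other alternatives were RLE scaling, no scaling, no filter, 1 CPM in at least 4 libraries, DESeq2 1.42.0 and each library left out. Promoters came from RefSeq (GRCm38.p6) and lengths and overlaps from GENCODE.

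The members and the gene lists were chosen with earlier results of these data known, so their counts are not independent evidence. Values in every library were given for the member of each role with the highest mean log2 CPM, the 3 largest and 3 smallest differences in LDN vs HDN, Mki67, Top2a and members that differed from the rest. Of each pathway list up to 3 abundant genes that passed and those in the opposite direction were named. Where 5 or fewer genes of a pathway list passed, all were named, and these, the marker genes Mpo, Tfrc and Igll1 and the factor gene Mybl2 were chosen after their values were seen. A marker result is not reported here.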

Additional observations from a re-analysis of the deposited data

Results flagged for a closer look

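Of 105 groups of 4 libraries, 4 held a library far from the other 3 by Dixon's criterion and chance gives about 1 in 20. Nuf2 stood at 4.63 CPM in LDN 3, with the next LDN library at 1.98 CPM. Nusap1 stood at 4.68 CPM in LDN 3, with the next at 2.45 CPM. Kif23 stood at 5.88 CPM in HDN 4, with the next lowest HDN library at 20.2 CPM. Hmmr stood at 0.0763 CPM in HDN 7, which is 2 reads, and at 0 in the other HDN libraries.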

How the results depend on the processing

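The counts of mitosis genes higher in LDN vs HDN (32), lower in HDN vs Naive (33) and lower in LDN vs Naive (34) were the same with RLE scaling, without scaling, without the filter, with the stricter filter and with DESeq2. With the replicate block, the paired fit of LDN vs HDN, 32 were again higher and 0 lower, and it changed no call among the 34 genes. Leaving out each library in turn gave 32 to 33 higher in LDN vs HDN, 33 to 33 lower in HDN vs Naive and 34 to 34 lower in LDN vs Naive, and 0 to 0 in the opposite directions. Of 1768 alternative values of single genes 1767 kept their side of the threshold and 0 reversed.

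Over all genes, scaling by library totals alone gave 1782 higher and 3675 lower in LDN vs HDN, against 2761 and 2153 with TMM. It moved the median of all genes to -0.28, and that of the mitosis genes from 3.63 to 3.35. In HDN vs Naive and LDN vs Naive it moved the median of all genes to 0.11 and -0.22. With each library left out, all genes gave 2329 to 2964 higher and 1961 to 2511 lower in LDN vs HDN, 2846 to 3318 and 2951 to 3368 in HDN vs Naive, and 2478 to 3162 and 2568 to 3130 in LDN vs Naive. The summed level ran from 1142 to 1305 CPM in Naive, 41.6 to 48.5 CPM in HDN and 219 to 258 CPM in LDN. Depth limits 7 genes with under 3 reads in every HDN library, whose HDN level is known only as close to 0.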
